A study of Mus musculus with 16 samples.

Results

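Collagen genes were examined in RNA-seq libraries of green cells sorted by FACS from the mouse neocortex at postnatal day 4 (P4). The members were all protein-coding genes whose symbol reads Col, a number, the letter a and a number, found from the gene identifiers of the count files. These were 44 of 53379 genes, of which 21865 were protein-coding. The members comprised 11 fibril-forming chains, 9 fibril-associated chains, 6 basement membrane (type IV) chains, 6 beaded filament (type VI) chains, 4 transmembrane chains, 3 short-chain network chains, 2 multiplexins and 3 chains outside these classes.

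In mosaic analysis with double markers (MADM), Cre, here expressed from the Emx1 locus, recombines homologous chromosomes, here chromosome 7, so that fluorescence marks the genotype of each daughter cell. Control-MADM animals (MADM7-GT/TG;Emx1-cre;XGFAP-lacZ) gave green Eed+/+ cells, called wt in the labels. Eed-MADM animals (MADM7-GT/TG,Eed with the same Emx1-cre and XGFAP-lacZ) gave green Eed-/- cells, called mosaic in the labels, within a cortex that was mostly Eed+/-. The XGFAP-lacZ transgene expresses lacZ from the human GFAP promoter, so green cells with lacZ activity (GFP+/lacZ+) stand for astrocytes here. Green cells without it (GFP+/lacZ-) stand for neurons, a fraction that holds any green cell lacking the reporter. Replicates were individual animals of either sex on a mixed background of C57BL/6 and CD1, with CD1 given as the strain in the labels. Green cells of both genotypes carried a paternal uniparental disomy of chromosome 7, and no member lies on that chromosome. The design had 5 Eed+/+ and 5 Eed-/- astrocyte libraries and 2 Eed+/+ and 3 Eed-/- neuron libraries.

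Collagens are secreted or membrane-bound trimers of alpha chains wound into a helix. Fibril-forming collagens build the cables of connective tissue, fibril-associated collagens sit on their surface, and type IV collagens form the sheet of every basement membrane. In the brain most collagen is known to lie in the meninges, in the pial basement membrane and around vessels, with smaller amounts made by glia and neurons. EED belongs to the core of PRC2, the Polycomb complex that methylates a histone lysine and that in mammals sits mainly at promoters rich in the dinucleotide CG.

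For that reason the 250 bases before the transcription start are shown for the 3 members that were detected in all 4 groups, whose RefSeq start equalled the start in the GENCODE annotation and whose gene overlaps no other collagen gene (which leaves out Col4a1). The sequences are from the RefSeq promoter table of build GRCm38.p6, read on the plus strand, and every CG is in capitals.
Col9a1, chr1:24177360-24177609: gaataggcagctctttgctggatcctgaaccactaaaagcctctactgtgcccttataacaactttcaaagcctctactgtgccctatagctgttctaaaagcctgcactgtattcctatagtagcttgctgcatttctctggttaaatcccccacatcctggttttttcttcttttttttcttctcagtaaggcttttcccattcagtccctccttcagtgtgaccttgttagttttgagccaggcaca
Col11a1, chr3:114030290-114030539: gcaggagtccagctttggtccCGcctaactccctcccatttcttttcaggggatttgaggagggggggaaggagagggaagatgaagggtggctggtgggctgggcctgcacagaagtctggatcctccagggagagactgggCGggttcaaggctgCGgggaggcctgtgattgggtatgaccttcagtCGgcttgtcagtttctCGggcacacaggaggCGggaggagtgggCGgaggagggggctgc
Col16a1, chr4:130047590-130047839: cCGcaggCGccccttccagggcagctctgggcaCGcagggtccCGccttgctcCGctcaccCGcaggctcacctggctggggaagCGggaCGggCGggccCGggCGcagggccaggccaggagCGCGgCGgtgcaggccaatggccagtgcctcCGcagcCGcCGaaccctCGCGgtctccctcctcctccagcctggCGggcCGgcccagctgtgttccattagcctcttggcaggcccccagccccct
The window of Col9a1 held 0 CG, that of Col11a1 held 7 and that of Col16a1 held 21. CG reads the same on both strands. Of the 32851 windows of this length in the table, 46.3% held at least 7 CG and 16.3% held at least 21. Windows were found for 35 of the 44 members. Their CG counts ranged from 0 in Col9a1, Col3a1 and Col28a1 to 31 in Col4a1, with a median of 10, and the median over all windows was 6.

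The type IV chains are coded by gene pairs that start back to back. On chromosome 8 the starts of Col4a1 (minus strand) and Col4a2 (plus strand) were 21 bases apart and the genes overlapped by 22 bases. The starts of Col4a3 and Col4a4 on chromosome 1 were 72 bases apart, and those of Col4a5 and Col4a6 on the X chromosome 1309 bases apart. Reads were counted without strand, so a read in the overlap of Col4a1 and Col4a2 could not be assigned to either.

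Depth differed widely between libraries, from 211736 to 3178529 reads in genes. Of the 15 labelled libraries, 10 had at least 60% and at least 1000000 uniquely aligned reads. Those outside these limits were Eed-/- astrocyte libraries 1, 3 and 4, Eed+/+ astrocyte library 3 and Eed+/+ neuron library 2. Eed, counted over the whole gene including exons outside the deletion, had 0, 26, 0, 0 and 14 reads in the Eed-/- astrocyte libraries 1 to 5 and 88, 204, 2, 85 and 41 in the Eed+/+ ones. Neuron libraries of Eed-/- cells held 16.7, 36 and 32.7 CPM of it (counts per 1000000 reads in genes), all below the 67.7 and 75.7 CPM of Eed+/+ cells. In astrocytes the genotypes overlapped in CPM of Eed, with Eed+/+ library 3 at 4.19 CPM and Eed-/- libraries 2 and 5 at 13.8 and 14.1 CPM. The 10 astrocyte markers summed to between 2248 and 19582 CPM over the astrocyte libraries and to between 6053 and 8177 CPM over the neuron libraries. The 10 neuron markers summed to between 0 and 4372 CPM in astrocytes and to between 1039 and 2748 CPM in neurons, so neither list separated the sorted fractions. The 8 oligodendrocyte lineage markers summed to between 209 and 4876 CPM over all libraries. In bulk samples, fewer cells of a type and less RNA per cell cannot be told apart.

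Collagen reads were sparse. Over the 15 libraries 43 of the 44 members had at least 1 read, Col10a1 (the collagen of hypertrophic cartilage) had 0 in every library, and 9 members had fewer than 10 reads in total. A member was taken as detected in a group with at least 5 reads in at least 2 of its libraries. By this rule 24 members were detected in control astrocytes and 22 in Eed-/- ones, and 10 in control neurons and 20 in Eed-/- ones. The same rule detected 54.4%, 43.3%, 32% and 54.4% of all protein-coding genes in these groups, so 24 of 44 (54.5%) in Eed+/+ astrocytes was near the share of all genes. Groups differ in their number and depth of libraries, and these counts are not comparable between groups.

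The 9 members detected in all 4 groups were Col9a1, Col9a2, Col9a3, Col16a1, Col11a1, Col11a2, Col5a2, Col4a1 and Col4a5. A further 9 were detected in 3 groups, 3 in 2 groups, 7 in 1 group and 16 in none. Those detected in no group included Col3a1, the fibrillar collagen of skin and vessel walls, Col6a1 and Col6a3, and Col25a1, a neuronal transmembrane collagen.

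**Figure D1:**
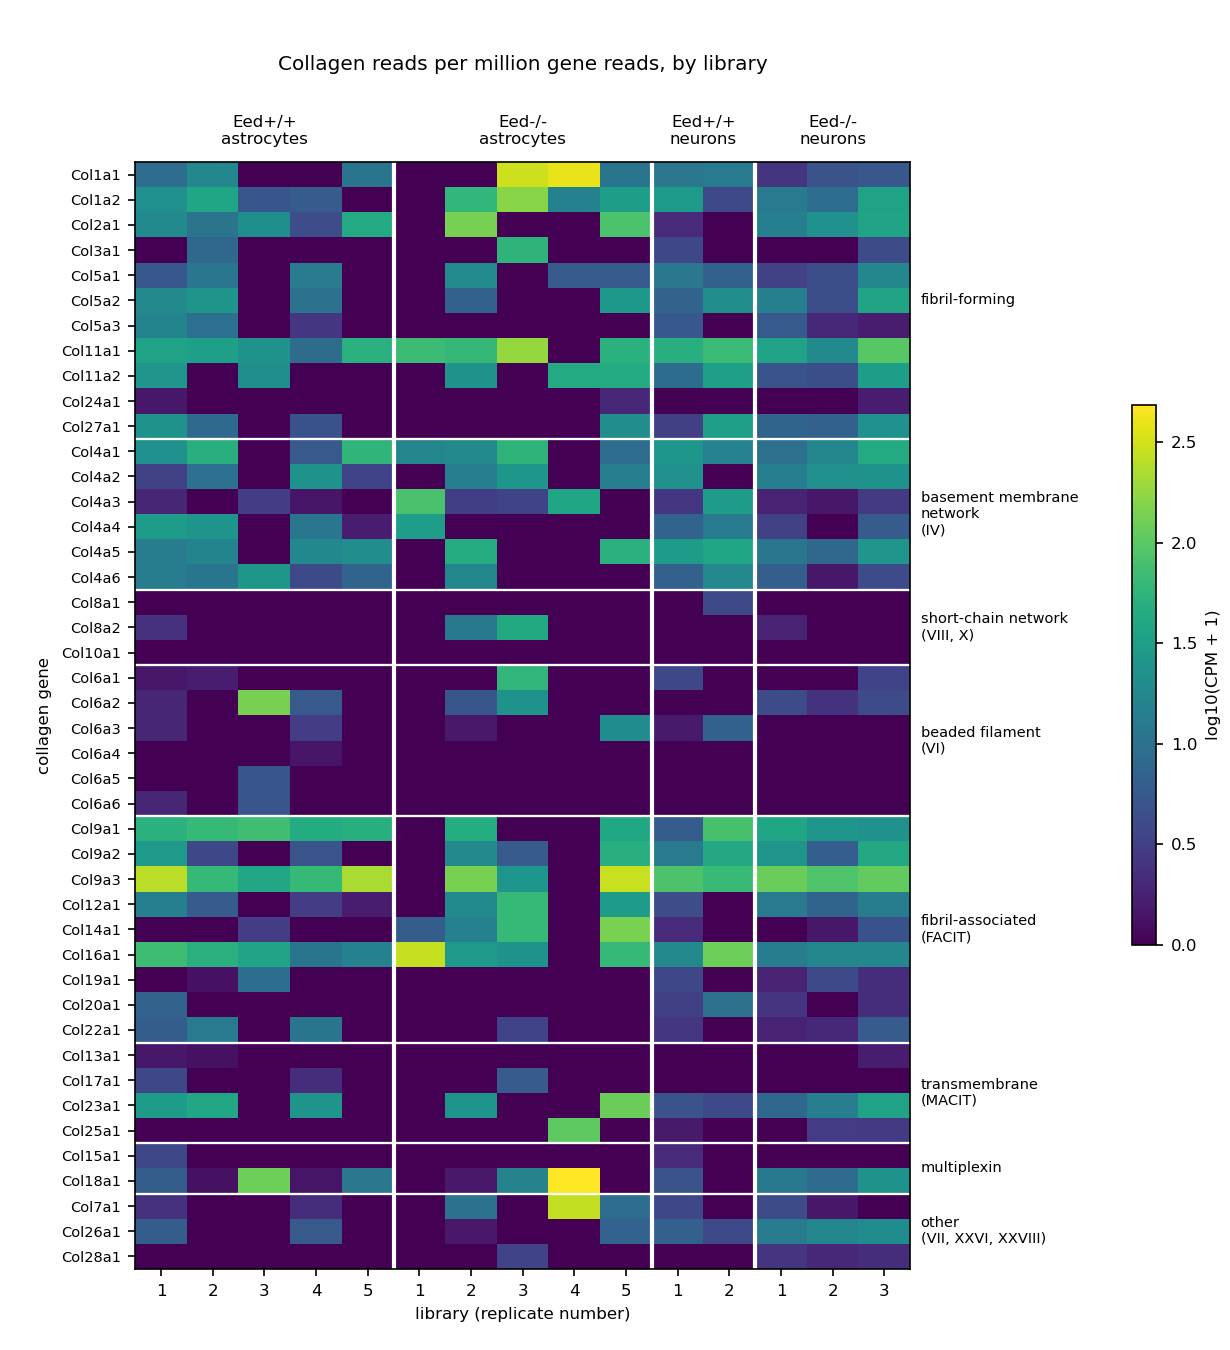
Heat map of each collagen gene (rows, grouped by class) in each of the 15 labelled libraries (columns, grouped by genotype and cell type), coloured by log10(CPM + 1). Rows of Col9a1, Col9a3, Col11a1 and Col16a1 are filled in most libraries, the Eed-/- astrocyte libraries 1 and 4 hold reads of only 6 and 8 members, and bright single cells mark members carried by 1 library.

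The member with the highest level per length was fibril-associated. Col9a3 codes for a chain of collagen IX, which lies on the surface of collagen II fibrils. It had the highest mean RPKM (CPM per kilobase of exon) of all members in each group, with 33.0 ± 26.2 (SD, n = 5) in control and 23.2 ± 32.2 (n = 5) in Eed-/- astrocytes, and 19.2 ± 3.66 (n = 2) in control and 26.9 ± 3.98 (n = 3) in Eed-/- neurons. Col1a1 was close in Eed-/- astrocytes, at 21.5 ± 29.1, and Col9a3 led in libraries 2 and 5 but not in 1, 3 or 4, so its place there rests on library 5, with 74.7 RPKM. The 3 collagen IX genes together held 32.2% of all collagen reads, and Col9a3 alone 22.3%.

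In single libraries Col9a3 had 253, 62.3, 39.8, 61.1 and 221 CPM in Eed+/+ astrocytes and 0, 135, 24.8, 0 and 288 CPM in Eed-/- astrocytes. Both groups spanned a wide range, and the zeros were in the Eed-/- libraries 1 and 4. Neuron libraries were closer to each other, with 83.9 and 64.0 CPM in Eed+/+ and 116, 86.5 and 108 CPM in Eed-/- cells, which did not overlap.

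Col9a1 codes for another chain of collagen IX. Control astrocytes held 51.0, 61.3, 71.2, 44.1 and 46.9 CPM of it, and the highest library held 25.9% of their sum, the lowest share of the 26 members with at least 10 reads there. In Eed-/- astrocytes it was at 45.0 CPM in library 2 and 38.2 CPM in library 5, and had 0 reads in libraries 1, 3 and 4. The limit that 0 reads allow (3 reads) was 7.83, 7.44 and 14.2 CPM in these libraries, below the lowest control value, and covers counting error only. The libraries without Col9a1 reads were the 3 outside the alignment limits. In neurons Col9a1 was at 5.04 and 78.6 CPM in Eed+/+ and at 36.6, 24.8 and 21.6 CPM in Eed-/- libraries, and the 2 controls lay on either side of the 3 others.

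Col16a1 codes for a fibril-associated chain that binds integrins. It was at 70.5, 50.0, 35.6, 9.98 and 14.2 CPM in Eed+/+ astrocytes and at 282, 27.0, 22.3, 0 and 62.4 CPM in Eed-/- astrocytes, where library 1 held 71.6% of the summed CPM. Its Eed+/+ neuron libraries were far apart, at 17.3 and 122 CPM, and the Eed-/- neuron libraries close together, at 12.7, 16 and 16.7 CPM. Library 1 of the Eed-/- astrocytes also held the most microglia markers, which summed to 10364 CPM there over all 8 markers and to between 0 and 1799 CPM in the other 4. Their part in the Col16a1 value was not tested.

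Col14a1 codes for undulin, a chain that bridges fibrils in tendon and skin. It had 2, 27, 25, 0 and 139 reads in the Eed-/- astrocyte libraries and 1 read over all 5 Eed+/+ astrocyte libraries, in library 3. In CPM these were 5.22, 14.3, 62.0, 0 and 140 against 0, 0, 2.09, 0 and 0. All Eed-/- libraries but library 4 lay above every control library. Library 1 did so with 2 reads, under the 7.83 CPM that 3 reads are worth there, against 1 control read, so depth does not resolve it. The group means were 44.3 and 0.419 CPM. Pooled over libraries and scaled by total depth, which weights deep libraries more than a mean of CPM does, 193 reads against 1 gave a ratio of 486 with an exact 95% counting interval of 86.2 to 19301, which covers counting error and not the spread between animals. Such an interval treats each read as independent and is no test between genotypes. Without Eed-/- library 5, which held 63.2% of the summed CPM, 54 reads against 1 gave a ratio of 183 (31.5 to 7354). Its neuron reads were few, with 2 and 0 in the controls and 0, 1 and 6 with Eed deleted.

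Among fibril-forming members, Col11a1 codes for a minor chain that sets fibril diameter. It had reads in 14 of 15 libraries, as did Col16a1, and the other members in at most 13. Its level was 34.3, 31.8, 23.0, 7.90 and 49.3 CPM in Eed+/+ astrocytes and 67.9, 60.3, 181, 0 and 50.3 CPM in Eed-/- astrocytes. Every Eed-/- library except library 4 was above the highest control, by a small margin for library 5. Neuron libraries were at 48.7 and 66.9 CPM in Eed+/+ and at 34.2, 18 and 96.4 CPM in Eed-/- cells.

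Col2a1, the main fibrillar chain of cartilage and an early neuroepithelial transcript, was at 18.1, 9.75, 20.9, 3.33 and 43.2 CPM in Eed+/+ astrocytes. In Eed-/- astrocytes it was at 135 CPM in library 2 and 82.5 CPM in library 5, and had 0 reads in libraries 1, 3 and 4. The neuron groups did not overlap, at 1.12 and 0 CPM in Eed+/+ and at 13.5, 21.9 and 35.8 CPM in Eed-/- cells.

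Col1a1 and Col1a2 code for the chains of collagen I, the main collagen of bone, skin and meninges. Col1a1 was at 8.10, 16.7, 0, 0 and 9.87 CPM in Eed+/+ astrocytes and at 0, 0, 302, 392 and 10.1 CPM in Eed-/- astrocytes. Libraries 3 and 4 of the Eed-/- astrocytes held nearly all of it. Col1a2 was at 21, 36.5, 4.19, 4.99 and 0 CPM against 0, 58.7, 159, 14.2 and 31.2 CPM, and was highest in library 3. Col3a1 had 22 reads in that library (54.5 CPM) and 0 in the other Eed-/- astrocyte libraries, and 22 reads (6.92 CPM) in Eed+/+ library 2 and 0 in the other controls.

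The remaining fibril-forming chains are minor components of fibrils. Col11a2, the partner of Col11a1, reached 44.3 CPM and had reads in 10 of 15 libraries. Col5a1 and Col5a2, the chains of collagen V that start collagen I fibrils, reached 18.5 and 35.8 CPM, with reads in 11 and 10 libraries. Col5a3 was at 15.3, 8.49, 0, 1.66 and 0 CPM in Eed+/+ astrocytes and had 0 reads in the 5 Eed-/- astrocyte libraries. Col27a1 reached 32 CPM, and Col24a1 had 3 reads in all.

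Library 3 of the Eed-/- astrocytes also held fibroblast and meningeal markers. The list of 10 such markers summed to 1455 CPM there, to between 7.83 and 36.2 CPM in the other Eed-/- astrocyte libraries and to between 4.77 and 62.9 CPM in Eed+/+ astrocytes. Dcn, a fibroblast proteoglycan, made up most of this sum, at 1192 CPM there and at most at 25.2 CPM in any other library. Crabp2 was at 178 and at most 17.9 CPM, and Ogn at 57.0 and at most 12.1 CPM. Tbx18 was at 19.8 CPM there, Lum, Foxc1 and Slc6a13 had 1 read each, and Ranbp3l and Aldh1a2 had 0. Slc22a6 was at 0 in all astrocyte libraries. Library 4, with the highest Col1a1 value, had 23.6 CPM of these markers. The part of these markers in the collagen values was not tested.

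Col4a1, which with Col4a2 forms the basement membrane network of vessels and pia, was at 21.9, 48.5, 0, 4.57 and 55.5 CPM in Eed+/+ astrocytes and at 15.7, 17.5, 54.5, 0 and 8.05 CPM in Eed-/- astrocytes. Col4a2 was at 2.38, 8.49, 0, 22.5 and 2.47 CPM against 0, 13.2, 24.8, 0 and 13.1 CPM. The groups overlapped for both genes.

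In neurons Col4a1 was at 24.6 and 14.6 CPM in Eed+/+ and at 8.75, 16 and 42.6 CPM in Eed-/- libraries, and Col4a2 at 21.3 and 0 against 13.5, 21.4 and 22.2 CPM. The 8 endothelial markers summed to between 0 and 4.72 CPM in Eed-/- astrocytes, where 6 were at 0, and between 0 and 54.4 CPM in Eed+/+ astrocytes, where 2 were at 0 and the highest value was in library 3. The list summed to between 2.91 and 4.48 CPM in Eed+/+ neurons, with 4 at 0, and between 0 and 28.7 CPM in Eed-/- neurons, with 1 at 0. Tek was at 0 in all 15 libraries. The 8 mural cell markers summed to between 0 and 303 CPM in Eed-/- astrocytes, between 16 and 140 CPM in Eed+/+ astrocytes and between 43.2 and 137 CPM in neurons, with 4 of the 8, Abcc9, Acta2, Kcnj8 and Tagln, at 0 in Eed-/- astrocytes.

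The other chains of the class showed no even pattern. Col4a5, on the X chromosome, was at 12.4, 15.4, 0, 17.0 and 19.7 CPM in Eed+/+ astrocytes, at 45.0 and 49.3 CPM in Eed-/- libraries 2 and 5, and at 0 in libraries 1, 3 and 4. Col4a4, a chain of the kidney filter, was at 31.3 CPM in Eed-/- library 1 and 0 in the other 4, against 28.6, 23.3, 0, 10.4 and 0.617 CPM in the controls. Its partner Col4a3 had 31 reads in Eed-/- library 1, 8 in library 4 and 5 in the other 3 together, against 4 in all controls.

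**Figure D2:**
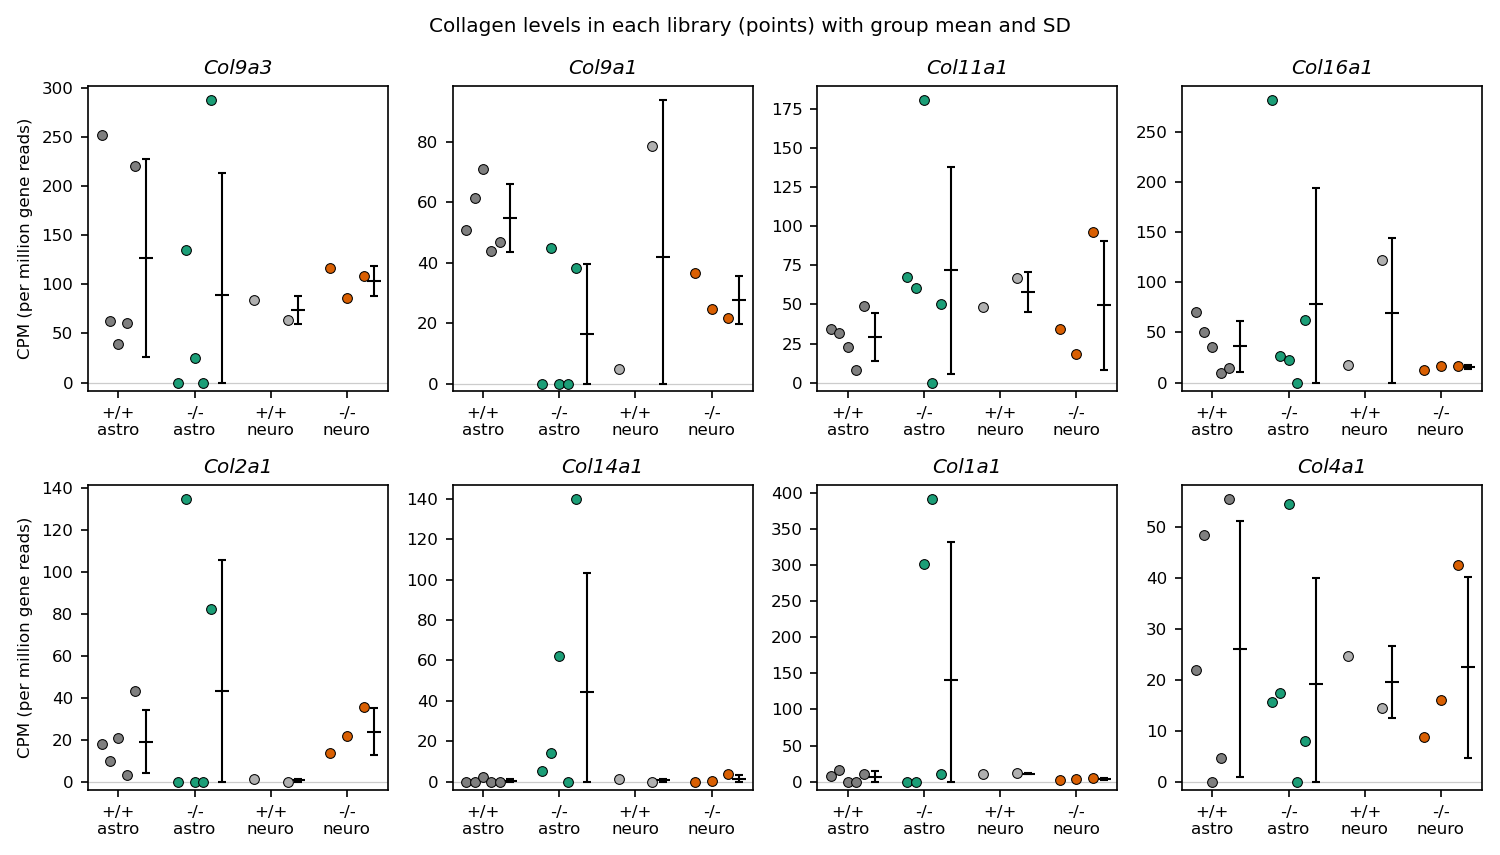
CPM of 8 collagen genes (panels) in each library (points, replicate 1 at the left of each group) of the 4 groups (+/+, Eed+/+; -/-, Eed-/-), with the mean and SD beside them (lower bars end at 0). Col9a1 is even in control astrocytes at 44.1 to 71.2 CPM, while Col1a1 in Eed-/- astrocytes is set by 2 libraries at 302 and 392 CPM.

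In the remaining classes single libraries held the highest values. Col18a1, the multiplexin from which endostatin is cut, was at 482 CPM (102 reads) in Eed-/- astrocyte library 4, where the other 4 had 0 to 14.9 CPM, and at 121 CPM in Eed+/+ library 3, where the others had 0.315 to 10.5 CPM. Col7a1, the anchoring fibril collagen of skin, was at 274 CPM (58 reads) in Eed-/- library 4 and at 0 to 8.99 CPM in the other 4. Col25a1 was at 104 CPM (22 reads) in the same library and had 0 reads in the 9 other astrocyte libraries. Library 4 was the shallowest, with 211736 reads in 2959 genes, and 3 reads there equalled 14.2 CPM.

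Col23a1, a transmembrane collagen, was at 29.1, 38.4, 0, 23.3 and 0 CPM in Eed+/+ astrocytes, at 23.3 and 119 CPM in Eed-/- libraries 2 and 5 and at 0 in libraries 1, 3 and 4. Among beaded filament chains, Col6a2 was at 134 CPM in Eed+/+ astrocyte library 3 and Col6a1 at 57.0 CPM in Eed-/- astrocyte library 3, and Col6a4, Col6a5 and Col6a6 had at most 4 reads each in all. Col8a2, a short-chain collagen of the cornea and vessels, reached 42.1 CPM in Eed-/- astrocyte library 3. Col26a1, which carries an emilin domain, was at 5.60 and 2.91 CPM in Eed+/+ and 11.9, 16 and 19.1 CPM in Eed-/- neurons against at most 6.04 CPM in any astrocyte library. The members with the fewest reads, beside Col10a1, were Col6a4 and Col8a1 with 1 read each, Col6a5 with 2, Col13a1 and Col24a1 with 3, Col6a6 with 4, Col28a1 with 7 and Col15a1 with 8.

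Among fibril-associated members not yet described, Col9a2 reached 48.3 CPM and had reads in 11 libraries. Col12a1, a chain of tendon and muscle sheaths, was at 13.3, 5.03, 0, 2.08 and 0.617 CPM in Eed+/+ and 0, 18, 62.0, 0 and 29.2 CPM in Eed-/- astrocytes, and Eed-/- libraries 2, 3 and 5 lay above all controls. Col22a1, a chain of tissue junctions, had reads in 8 libraries with at most 12 CPM. In Eed-/- astrocytes it had 1 read, against 11, 38, 0, 24 and 0 (73 in all) in the controls, a ratio of Eed+/+ over Eed-/- of 29.0 with an exact 95% counting interval of 5.04 to 1160 that covers counting error only. Here too reads were treated as independent, and the interval is no test. Col20a1 had reads in 5 with at most 8.73 CPM and Col19a1 in 6 with at most 8.37 CPM.

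To describe how far single libraries set these values, the share of a group's summed CPM in its highest library was taken for each member with at least 10 reads in the group. In Eed-/- astrocytes 12 of 29 members had at least 80% of it in 1 library: Col18a1, Col23a1, Col25a1, Col27a1, Col3a1, Col4a4, Col4a6, Col5a2, Col6a1, Col6a2, Col6a3 and Col7a1. Over all genes with at least 10 reads the share was 30.2%. In Eed+/+ astrocytes, also with 5 libraries, these were 4 of 26 members (Col18a1, Col20a1, Col3a1 and Col6a2), against 10.5% of all genes.

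With 2 libraries in Eed+/+ neurons, 7 of 18 members and 39.2% of all genes passed. With 3 libraries in Eed-/- neurons, Col11a2 alone of 23 members passed, against 2.76% of all genes. Eed-/- astrocytes had the higher share of the 2 astrocyte groups over all genes as well as over collagens. Of the 3 Eed-/- astrocyte libraries outside the alignment limits, library 1 held the top share of Col4a4, library 3 those of Col3a1, Col6a1 and Col6a2, and library 4 those of Col18a1, Col25a1 and Col7a1.

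**Figure D3:**
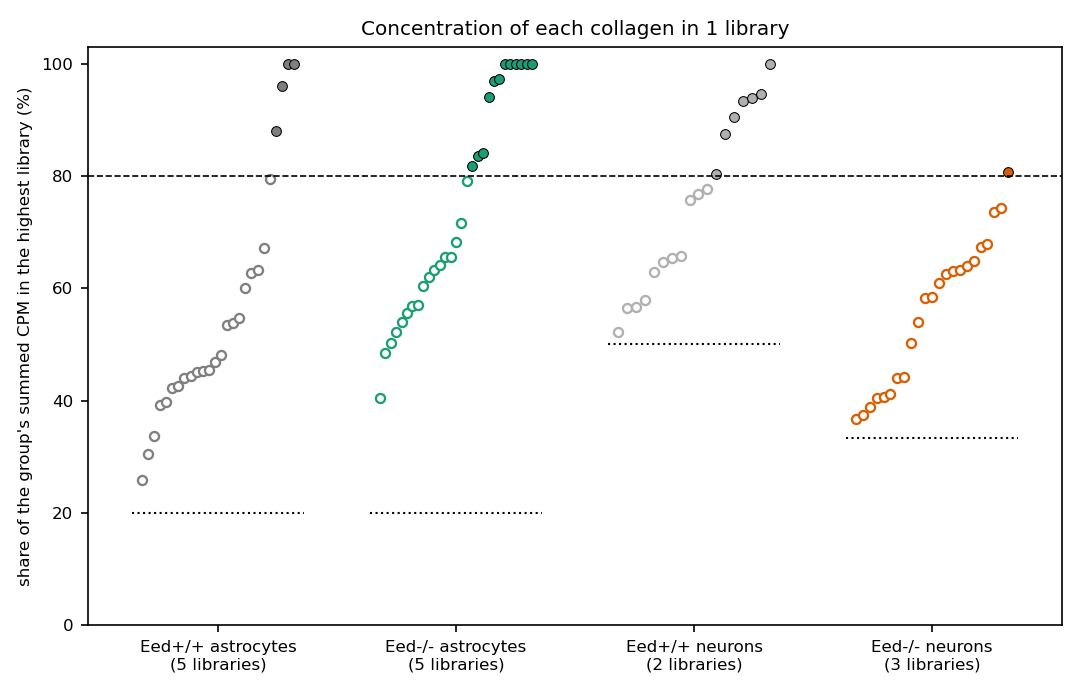
Share of a group's summed CPM held by its highest library (y axis, percent) for each collagen with at least 10 reads in that group (points, sorted), with filled points at or above 80% (dashed line) and the share that equal libraries would give (dotted lines). In Eed-/- astrocytes 12 of 29 points are filled, against 4 of 26 in Eed+/+ astrocytes.

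Summed over all 44 members, the collagen level was 722, 490, 517, 270 and 480 CPM in Eed+/+ astrocytes (496 ± 160, SD, n = 5) and 483, 701, 1100, 1351 and 1099 CPM in Eed-/- astrocytes (947 ± 348, n = 5). Libraries 3, 4 and 5 of the Eed-/- astrocytes lay above all controls, and libraries 1 and 2 lay within the control range. A different class led in each of the 3 high libraries: fibril-forming chains in library 3 (696 of 1100 CPM), Col18a1 in library 4 (482 of 1351 CPM) and fibril-associated chains in library 5 (606 of 1099 CPM).

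The summed level in neurons was 362 and 611 CPM in Eed+/+ and 377, 299 and 675 CPM in Eed-/- libraries, and the groups overlapped. Without Col9a3 the astrocyte sums ranged from 209 to 477 CPM in Eed+/+ and from 483 to 1351 CPM in Eed-/- libraries, which did not overlap, with a gap smaller than the spread within either group. Scaling by TMM ended this separation, with sums without Col9a3 of 246 to 538 in Eed+/+ and 300 to 1154 in Eed-/- astrocytes. With Col9a3 kept, TMM scaling left Eed-/- libraries 3, 4 and 5 above all controls, which then ranged from 317 to 802. It moved library 1 below them, at 300, and library 2 above them, at 866. The file numbers of the libraries fall into an earlier run (Eed+/+ 1 and 2, Eed-/- 1 to 3 and all neurons) and a later run. In the earlier run the astrocyte sums overlapped, and in the later run the Eed-/- libraries at 1351 and 1099 CPM lay above the Eed+/+ ones at 517, 270 and 480 CPM. These sums carry no test, since the members were chosen with earlier results known.

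**Figure D4:**
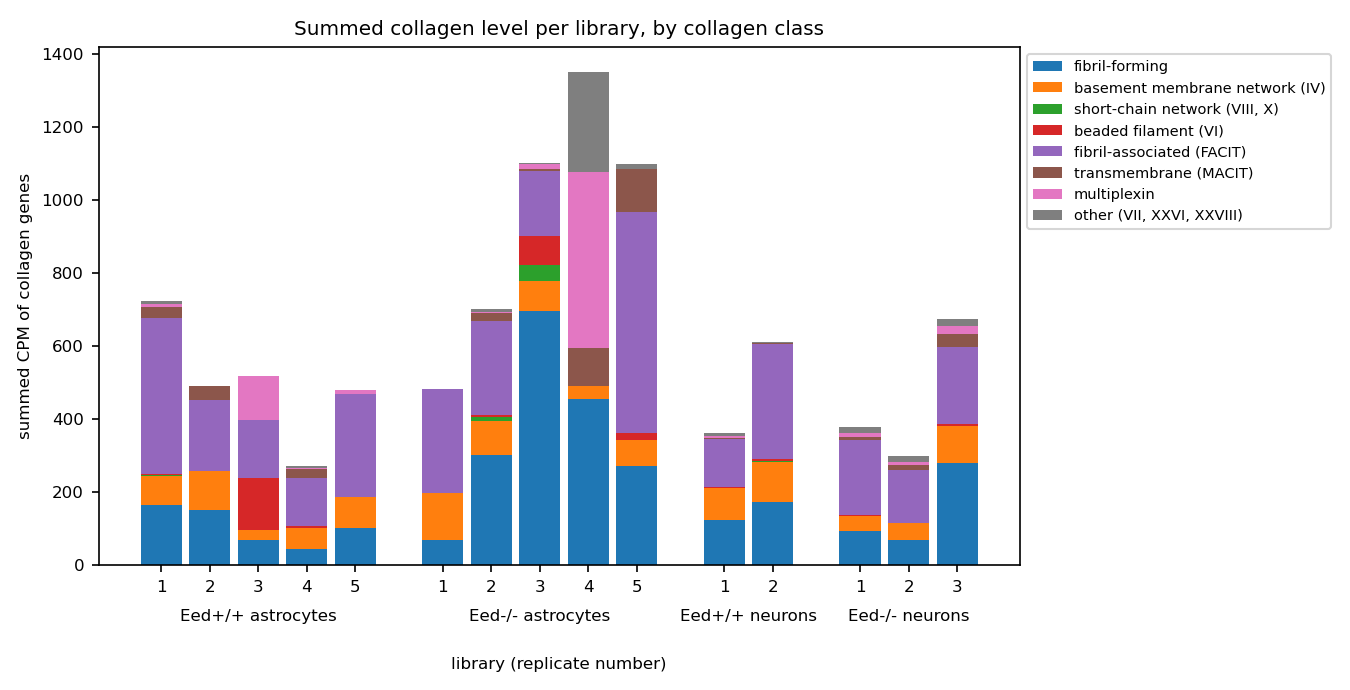
Summed CPM of the 44 collagen genes in each library (bars, replicate numbers below), stacked by collagen class, for the 4 groups. The Eed-/- astrocyte libraries 3, 4 and 5 reach 1100, 1351 and 1099 CPM through different classes, and the neuron libraries lie between 299 and 675 CPM.

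The comparison of genotypes within astrocytes asks which genes change in a cell that loses PRC2. Of the 44 members 12 passed the low-count filter of edgeR, and 0 passed an adjusted p of 0.05 or 0.2, as did 0% of the 8956 genes tested at either threshold. At an unadjusted p under 0.05 there was 1 member, Col1a1, which was higher, and 108 of all genes (0.357% of those tested higher and 0.849% lower). Col1a1 was higher in Eed-/- cells by 4.15 ± 1.62 (SE) on the log2 scale (edgeR unadjusted p = 0.0103, adjusted p = 0.9999), and 2 of 5 Eed-/- libraries lay above the controls. Without the libraries outside the alignment limits its difference was -0.98 and with voom quality weights 0.29, so the value rests on the libraries outside the limits. Over 18 alternatives the edgeR, DESeq2 or voom adjusted p of Col1a1 ranged from 0.216 to 1. With the run of file numbers as a covariate the difference was 4.27 ± 1.73. DESeq2 and limma-voom called 0 members at an adjusted p of 0.05 or 0.2, with 1 and 2 members at an unadjusted p under 0.05.

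The smaller differences were Col1a2 at 2.09 ± 1.59, Col11a1 at 1.35 ± 1.5, Col2a1 at 1.31 ± 1.57, Col11a2 at 1.25 ± 1.58 and Col9a1 at -1.58 ± 1.57 on the log2 scale, none beyond the spread between libraries by edgeR (adjusted p = 0.9999 for each). Log2 differences were above 0 for 9 of 12 members against 28.6% of all genes, and the median was 0.68 for members against -0.54 for all genes. With size factors by relative log expression (RLE) in place of TMM the median of all genes moved to -0.37, and again 9 of 12 members were above 0. Relative to the TMM median of all genes, Col1a1 was at 4.68, Col9a3 at 0.04 and Col9a1 at -1.05. The 5 fibril-forming members tested were at 1.25 to 4.15, the 3 type IV members at -0.41 to 0.62 and the 3 fibril-associated members at -1.58 to 0.74. A gene that is high in 1 group passes the low-count filter more easily, so these counts are a description.

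No member had all 5 Eed-/- astrocyte libraries above, or all below, the 5 controls, of 34 members with at least 10 reads, against 0.0247% and 1.31% of all genes. Mean CPM was higher in Eed-/- cells for 22 of the 34, against 34.4% of all genes. Without Eed-/- library 4, Col11a1 and Col14a1 of 33 members lay above in every library, against 0.138% of all genes. Without Eed-/- library 5, Col4a3 of 33 did, against 0.0886%. For Col4a3 this rests on 4 reads (2.12 CPM) and 1 read (2.48 CPM) in Eed-/- libraries 2 and 3. Its highest control was 1 read (2.09 CPM) in Eed+/+ library 3. For Col14a1 it rests on 2 reads in Eed-/- library 1 against 1 read in Eed+/+ library 3. Depth does not resolve such differences. Col9a1 lay below in every library without Eed+/+ library 4, against 1.52%, and Col4a6 and Col9a1 did without Eed-/- library 2, against 2.92%. Within the alignment limits, with 2 Eed-/- and 4 Eed+/+ libraries, Col11a1, Col12a1, Col14a1, Col2a1, Col4a5 and Col7a1 lay above and Col4a4 below, of 30 members, against 5.66% and 6.79% of all genes.

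Col14a1 and Col7a1 did not pass the filter of the astrocyte fit and have no value in it. Fits with other filters or over all 15 libraries admit them through the Eed-/- astrocytes, where 193 of 203 and 83 of 99 reads lay, so no test of them is given for this comparison. Of the 83 reads of Col7a1, 58 were in library 4.

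**Figure D5:**
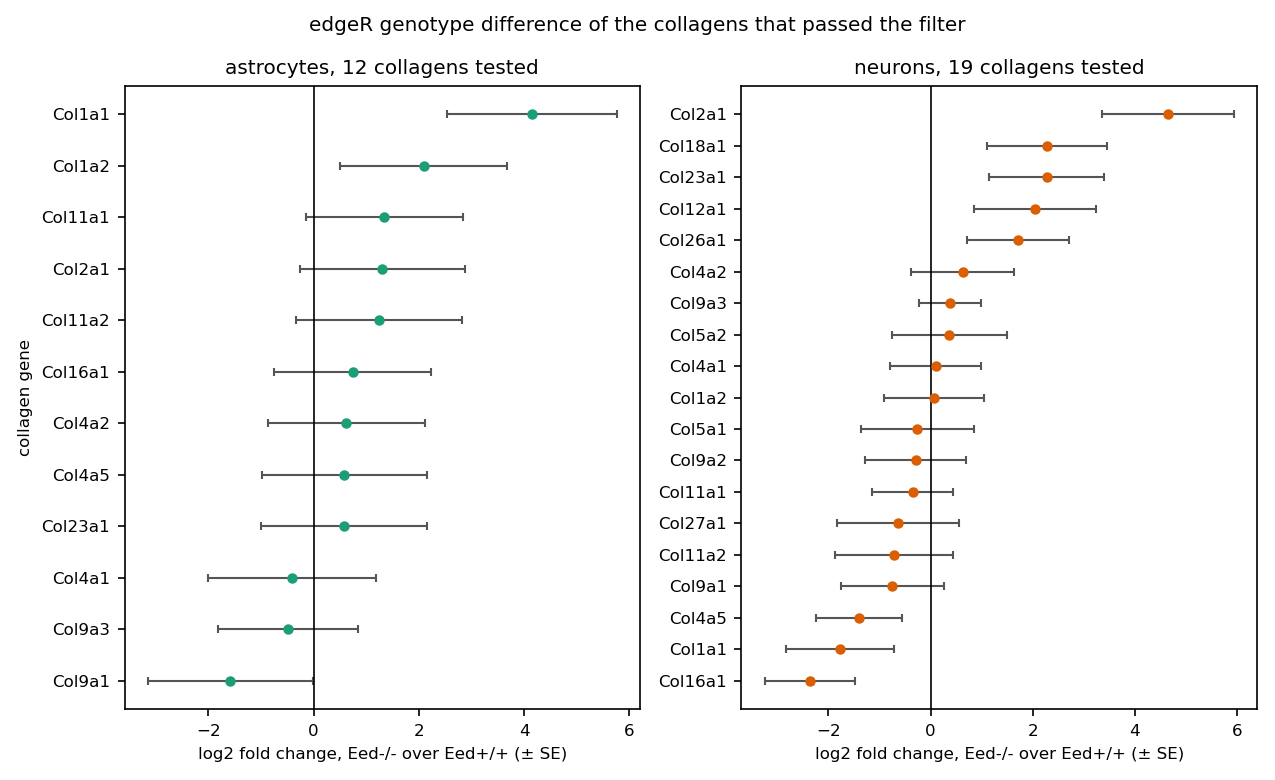
Log2 fold change between Eed-/- and Eed+/+ cells with its SE (x axis) from edgeR for the 12 collagens tested in astrocytes (left) and the 19 tested in neurons (right), ordered by value. Col1a1 in astrocytes (4.15) and Col2a1 in neurons (4.65) are the highest, and no member passed an adjusted p of 0.05.

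In neurons 19 members were tested and 0 passed at 0.05 or 0.2, as did 0% of the 11862 genes tested. At an unadjusted p under 0.05 there was 1 member higher, Col2a1, and 1 lower, Col16a1, against 2.12% and 5.15% of all genes. Col2a1 was at 4.65 ± 1.29 on the log2 scale (Eed-/- minus Eed+/+), with all 3 Eed-/- libraries above both controls. It passed the low-count filter through the Eed-/- neurons, where it is high, so its value and its place in the counts are a description and no test of it is given. Pooled reads were 120 against 2, the latter both in Eed+/+ library 1, a ratio of 25.9 with an exact 95% counting interval of 7.02 to 216 that covers counting error only. The interval treats each read as independent and is no test between genotypes. DESeq2 and limma-voom also called 0 members at 0.05.

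Col16a1 was lower in Eed-/- neurons, at -2.36 ± 0.89 on the log2 scale (edgeR unadjusted p = 0.0195, adjusted p = 0.668), with all 3 Eed-/- libraries below both controls. Without Eed+/+ neuron library 2, which held 87.6% of the control CPM, the difference was -0.13, and over 13 alternatives the adjusted p ranged from 0.00437 to 1. Of the others, Col4a5 was at -1.39 ± 0.84 on the log2 scale (edgeR adjusted p = 0.739). Col23a1 was at 2.28 ± 1.13, Col18a1 at 2.28 ± 1.18, Col12a1 at 2.05 ± 1.2 and Col26a1 at 1.71 ± 1.00. Their controls held from 0 to 5.60 CPM, and they too passed the filter through the Eed-/- libraries, so these 4 values are a description with no test. The same holds for Col1a1 at -1.78 ± 1.06, which passed through the Eed+/+ libraries. Differences were above 0 for 10 of 19 members, against 55.4% of all genes, with a median of 0.08 against 0.15. Mean CPM was higher in Eed-/- neurons for 13 of 29 members with at least 10 reads, against 60% of all genes.

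With 3 libraries against 2, all Eed-/- neuron libraries lay above both controls for 7 of 29 members, Col12a1, Col18a1, Col23a1, Col26a1, Col2a1, Col6a2 and Col9a3, against 14.1% of all genes. They lay below for 6, Col16a1, Col1a1, Col20a1, Col4a4, Col4a5 and Col4a6, against 8.43%. In Eed+/+ library 2, 3 reads equalled 8.73 CPM. The lowest Eed-/- values of Col6a2 (1.46 CPM), Col12a1 (6.32 CPM), Col23a1 (7.16 CPM) and Col18a1 (7.77 CPM) lay under this. Depth does not resolve these members from that library. Col20a1 rests on 2, 0 and 2 reads against 4 and 3. Without Eed+/+ neuron library 1, which leaves 1 control assumed to vary like the other group, 3 members were among the 2601 of 12635 genes that passed an edgeR adjusted p of 0.05. Of these, Col2a1 and Col4a3 passed the filter through the group where they are high, so this count is a description, and Col16a1 was the other.

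In the neuron fraction no gene of the marker lists passed the test between genotypes. The 10 fibroblast and meningeal markers summed to 53.7 and 52.4 CPM in Eed+/+ and to 20.7, 10.7 and 27.8 CPM in Eed-/- libraries, which did not overlap. Of the list, 4 were tested, 3 below and 1 (Foxc1, at 0.81) above 0. Lum, Slc22a6 and Slc6a13 were at 0 in the Eed-/- libraries and Aldh1a2 in the Eed+/+ ones, and Col1a1 was below both controls in each Eed-/- library. The 10 neuron markers summed to 1939 and 1039 CPM in Eed+/+, where Syt1 was at 0, and to 1686, 2408 and 2748 CPM in Eed-/- libraries, which overlapped. Neurod2, Neurod6, Rbfox3, Snap25, Syt1 and Tubb3 were above both controls in each Eed-/- library, as were 14.1% of all genes with at least 10 reads. Neurod2 among them was at 11.2 and 11.6 CPM against 35.8, 97.2 and 139 CPM. Lrrn3 was below both controls in each Eed-/- library, as were 8.43% of all genes, and Map2, Dcx and Stmn2 overlapped. Pdgfra, of the oligodendrocyte lineage list, was at 487 and 253 CPM in Eed+/+ against 108, 82.1 and 182 CPM in Eed-/- libraries, and Pdgfrb, of the mural list, at 26.9 and 137 CPM against 30.2, 10.7 and 19.1 CPM. Of the fibroblast list, Slc6a13 was at 17.3 and 11.6 CPM against 0 and Ranbp3l at 7.84 and 26.2 CPM against 2.39, 1.94 and 0.618 CPM. At an unadjusted p under 0.05 by edgeR there were 4 neuron markers higher in Eed-/- neurons (Neurod2, Neurod6, Rbfox3 and Syt1), against 2.12% of all genes. Lower at this level were 2 fibroblast markers (Slc6a13 and Ranbp3l), 1 oligodendrocyte lineage marker (Pdgfra) and 1 mural marker (Pdgfrb), against 5.15% of all genes. Among all of these, Neurod6, Rbfox3, Syt1, Slc6a13 and Ranbp3l passed the filter through the group where they are high, so the counts are a description. The part of these markers in the collagen differences was not tested.

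Between the sorted fractions, over both genotypes, 0 of 30 tested members passed at 0.05 or 0.2, against 0.015% and 0.0449% of 13367 genes, and at an unadjusted p under 0.05 there were 2 members, both higher in astrocytes, against 1.32% of all genes higher and 4.19% lower. These were Col6a2, at 4.61 ± 1.92 on the log2 scale (astrocytes minus neurons), and Col18a1, at 2.83 ± 1.42 (edgeR unadjusted p = 0.0468, adjusted p = 0.902), where the highest values were in libraries outside the alignment limits. Within those limits Col18a1 was at -2.39. Col8a2 was at 3.72 ± 1.92. Col6a2 and Col8a2 passed the filter through astrocyte libraries, with at most 3.18 and 0.796 CPM in neurons, so their values and the count that holds Col6a2 are a description with no test. The lowest differences were Col20a1 at -2.64 ± 1.41, Col26a1 at -2.11 ± 1.32, with at most 6.04 CPM in astrocytes, and Col5a3 at -1.65 ± 1.21. The 8 microglia markers were all above 0 in this comparison, with a median of 4.36 against -0.34 for all genes. Their sums were 10364 and 1799 CPM in Eed-/- astrocyte libraries 1 and 3 and 0 in libraries 2, 4 and 5. Eed+/+ astrocytes held 0 to 266 CPM and neurons 0 to 105 CPM, so this median describes single libraries and not the astrocyte fraction as a whole. Members had a median of 0.23, with 17 of 30 above 0 against 36% of all genes. For the difference between cell types in the genotype effect (astrocytes minus neurons) 0 of 30 members passed at 0.05 or 0.2, against 0.0524% and 0.0973% of all genes. At an unadjusted p under 0.05 there were 4 members above 0 (Col4a3, Col14a1, Col7a1 and Col1a1) and 0 below, against 1.41% and 2.2% of all genes. Col14a1 and Col7a1 enter this fit through the Eed-/- astrocytes, where they are high, and Col4a3 through Eed-/- astrocyte libraries 1 and 4 and Eed+/+ neuron library 2, with at most 2.48 CPM elsewhere, so the count of 4 is a description. Values above 0 were held by 16 of 30 members, against 31.8% of all genes. Col1a1 was at 5.67 ± 2.42 on the log2 scale (edgeR adjusted p = 0.9999). Col4a3 was at 8.47 ± 2.97, Col14a1 at 6.52 ± 2.99 and Col7a1 at 6.23 ± 2.83, given with no test. Col4a3 was at 5.2 without Eed+/+ neuron library 2, Col7a1 at 3.24 without Eed-/- astrocyte library 4 and Col1a1 at 0.60 within the alignment limits. This value had a median of -0.79 over all genes under TMM, which RLE factors moved to -0.31.

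The collagen in a tissue also depends on genes that modify, bind and degrade it. Of 31 genes for collagen modification, secretion and cross-linking, 20 were tested in astrocytes and 0 passed. Their median difference was -0.46 against -0.54 for all genes, and P3h3, a prolyl hydroxylase, was at 2.11 ± 1.57 on the log2 scale, with 401 CPM in Eed-/- library 4, and at -0.41 without that library. In neurons 22 were tested and 0 passed. Of them 20 were above 0, against 55.4% of all genes, and the median was 0.72 against 0.15. These counts are a description, since Eed+/+ neuron library 2 was outside the alignment limits and the low-count filter favours genes high in 1 group. Fkbp10, a collagen chaperone, was at 1.44 ± 0.71. Colgalt2, a collagen galactosyltransferase, was at -1.94 ± 0.85, with 148 CPM in Eed+/+ neuron library 2 and 16 to 32.6 CPM in the other 4 neuron libraries, and at 0.22 without library 2.

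Of 10 collagen receptors, 4 were tested in astrocytes, with differences from -0.16 to 0.04, and 6 in neurons, and 0 passed in either. The list medians were -0.05 and -0.49. Adgrg1, the adhesion receptor that binds Col3a1 protein at the pial surface, was at 0.04 ± 0.99 in astrocytes and at -0.45 ± 0.64 in neurons, and Itgb1, the beta chain of collagen-binding integrins, at -0.10 ± 1.17 and -0.54 ± 0.61. Lair1, an inhibitory collagen receptor of immune cells, was at -2.62 ± 1.21 in neurons (edgeR adjusted p = 0.684), with 37.8 CPM in Eed+/+ library 2 and at most 6.18 CPM in the others, and at 0.11 without library 2. Of 13 genes for collagen breakdown, 6 were tested in astrocytes and 8 in neurons, and 0 passed, with medians of 0.15 and 0.02. Timp3, a protease inhibitor bound to matrix, was at 1.99 ± 0.90 in neurons and Mmp2, a gelatinase, at 2.41 ± 1.03, both given with no test since they passed the filter through the Eed-/- libraries.

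Partners of type IV collagen in basement membranes gave the same count of 0 called, of 6 tested in astrocytes and 11 in neurons among 13 genes. Sparc, a collagen-binding glycoprotein, was at 1.46 ± 0.97 in astrocytes and 1.09 ± 0.64 in neurons. Hspg2, the proteoglycan perlecan, was at -3.46 ± 1.29 in neurons (edgeR unadjusted p = 0.0186, adjusted p = 0.668). It held 5.04 and 111 CPM in the controls and 0.796, 1.94 and 14.8 CPM in Eed-/- neurons, and without Eed+/+ library 2 the difference was 0.27. The median of the list was -0.83 in astrocytes and -0.78 in neurons, against -0.54 and 0.15 for all genes.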

How the data were processed

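Green cells of the P4 neocortex were collected by FACS, and cDNA libraries were made by Smart-Seq v2 and sequenced on an Illumina HiSeq instrument. The deposited values are whole-number read counts per gene that the authors obtained with STAR on mouse genome build GRCm38 (mm10), and the column of unstranded counts was used, since 46.7 to 52.7% of stranded reads lay on the first strand. Reads outside genes (8.55 to 71.6% per library) and ambiguous reads (0.934 to 5.66%) were left out of library sizes. Of 53379 gene identifiers 53274 matched the reference annotation by identifier without its version, and gene names were taken from the annotation.

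Counts were tested with edgeR 4.0.16 (TMM factors, filterByExpr, quasi-likelihood F test, Benjamini-Hochberg over all genes tested) in R 4.3.3, within each cell type for genotype and over 15 libraries in a 4-group design for cell type and interaction. The call was an adjusted p of 0.05, and 0.2 was also counted, the level of the study. DESeq2 1.42.0, limma 3.58.1 (voom with quality weights), RLE factors, other filters, left-out libraries, a replicate block, a covariate for the run of file numbers and limits on alignment were alternatives. The cell type fit with a replicate block was added after the data were seen. Levels per length used the summed exon length of each gene, and promoter windows came from RefSeq, build GRCm38.p6.

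The members and lists were chosen with earlier results of these data known. Named genes were 9 collagens listed by name (Col4a1, Col4a2, Col1a1, Col1a2, Col3a1, Col11a1, Col2a1, Col25a1 and Col23a1), the 5 highest by mean RPKM in each group, the 3 with the smallest p per direction in the genotype and cell type comparisons, the 5 carried by 1 library with most reads, and those higher in every Eed-/- library. In each list of partner genes the 3 with the smallest p per genotype comparison could be named. Other members are named to account for all 44. The study removed 5 of 16 libraries but did not name them, so all 15 labelled libraries were kept. The sixteenth, whose labels give 2 cell types, entered no comparison.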

Additional observations from a re-analysis of the deposited data

Results flagged for a closer look

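In a group of 5 libraries, 1 library stood apart from the other 4 (Dixon's 95% limit) for 5 of 26 members in Eed+/+ astrocytes and 15 of 29 members in Eed-/- astrocytes, counting members with at least 10 reads in the group. By the same rule 22.3% and 38.8% of all genes had such a library, so the share was higher in Eed-/- astrocytes over all genes too. Chance alone gives this in about 1 of 20 groups, and counts of a few reads are not normally distributed, so the limit is approximate. In Eed+/+ astrocytes these were Col3a1 at 6.92 CPM in library 2, Col20a1 at 6.20 CPM and Col9a2 at 27.2 CPM in library 1, and Col6a2 at 134 CPM and Col18a1 at 121 CPM in library 3.

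In Eed-/- astrocytes library 1 stood apart for Col16a1 (282 CPM) and Col4a4 (31.3 CPM), and library 2 for Col5a1 (18.5 CPM) and Col4a6 (15.9 CPM). Library 3 stood apart for Col3a1 (54.5 CPM), Col6a1 (57.0 CPM), Col8a2 (42.1 CPM) and Col6a2 (22.3 CPM). Library 4 stood apart for Col18a1 (482 CPM), Col7a1 (274 CPM) and Col25a1 (104 CPM), and library 5 for Col23a1 (119 CPM), Col5a2 (26.2 CPM), Col27a1 (20.1 CPM) and Col6a3 (19.1 CPM). Of these 15, 9 lay in libraries outside the alignment limits (1, 3 and 4) and 6 in libraries within them.

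The library whose labels give 2 cell types held 3 members above every Eed+/+ library and above the 13.5 CPM that 3 reads are worth there: Col26a1 at 1621 CPM against at most 5.60 CPM, Col12a1 at 357 CPM against at most 13.3 CPM and Col8a1 at 31.6 CPM against at most 2.91 CPM. It had 221456 reads in genes.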

How the results depend on the processing

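No member was called in astrocytes, between cell types or in the interaction under any alternative at an adjusted p of 0.05, and in neurons 0 to 3 were called when 1 library was left out. Over all genes the edgeR count in astrocytes was 0, with 5 without a filter, 24 with a mean count above 10, 46 in 1 fit over 15 libraries and 1 with DESeq2, and in neurons 0, with 127, 0, 3 and 27. Leaving out 1 library gave 0 to 1 genes in astrocytes and 0 to 2601 in neurons, the highest without Eed+/+ neuron library 1. Between cell types 2 genes became 0 to 5, and in the interaction 7 became 21 with RLE factors and 0 with voom or within the alignment limits.

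Log2 differences that changed sign within the alignment limits were Col1a1 (-0.98) and Col9a3 (0.48) in astrocytes, Col11a1 (0.064), Col1a2 (-0.57), Col4a1 (-0.066) and Col4a2 (-0.083) in neurons and Col18a1 (-2.39) between cell types. With voom these were Col9a3 (0.067) in astrocytes, Col1a2 (-0.62) and Col4a1 (-0.88) in neurons and Col18a1 (-1.52) between cell types. With the replicate number as a block they were Col23a1 (-2.07) and Col2a1 (-1.98) in astrocytes, Col1a2 (-0.27) and Col4a1 (-0.77) in neurons and Col18a1 (-1.39) between cell types. The block changed no call of a member. Same-numbered Eed+/+ and Eed-/- astrocyte libraries correlated at -0.017 to 0.195, so the numbers do not show a pairing between genotypes. Same-numbered astrocyte and neuron libraries of a genotype correlated at -0.049 to 0.127. Whether these shared an animal is not known here, and the main cell type and interaction fits treated them as independent. The cause of these changes was not tested.

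Over libraries left out in turn, the range was -1.37 to 1.07 for Col23a1, -1.49 to 0.073 for Col4a1 and -0.052 to 0.92 for Col4a2 in astrocytes, -1.23 to 0.064 for Col11a1, -0.78 to 2.39 for Col1a2, -0.70 to 0.50 for Col4a1 and -0.083 to 7.65 for Col4a2 in neurons, and -2.08 to 0.71 for Col5a3 between cell types. Members above in every Eed-/- astrocyte library numbered 0 to 2 when 1 library was left out and 6 within the alignment limits. Members carried by 1 library numbered 12, 27, 18 and 15 at a share of 50% in Eed+/+ astrocytes, Eed-/- astrocytes, Eed+/+ neurons and Eed-/- neurons, beside 34.9%, 77.4%, 100% and 36.7% of all genes, where 2 libraries fix the Eed+/+ neuron count, and with at least 50 reads 2 of 23 (2.64% of all genes), 3 of 16 (16.8%) and 2 of 5 (31.2%) in the first 3 of these. In Eed-/- neurons 0 of 23 were carried at 90% (1.14%). Members detected in Eed+/+ neurons numbered 20 with at least 1 read and 6 with at least 10 (45.2% and 24.4% of protein-coding genes), and in Eed-/- neurons 31 with at least 1 read (62.2%).

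Depth limits the shallow libraries most: 3 reads were worth 14.2 CPM in the shallowest and 0.944 CPM in the deepest, so a collagen at a few CPM was not detectable in the former.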
